A study of Mus musculus with 10 samples.

Results

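The genes described here are 55 members of the TGF-beta superfamily pathway in the mouse, chosen by gene symbol as ligands, receptors and co-receptors, antagonists, latent binding proteins, Smads, Id genes and the TGF-beta induced matrix protein Tgfbi. All 55 had a named feature on the array, out of 20738 genes with one. Ligands of this family are secreted dimers that bring together type II and type I receptors, which are serine/threonine kinases at the cell surface. The activated type I receptor phosphorylates receptor Smads, with Smad2 and Smad3 serving TGF-beta and activin and Smad1, Smad5 and Smad9 serving the bone morphogenetic proteins (BMPs), and these enter the nucleus with Smad4, where Id genes are among the direct BMP targets. In the gonad the family includes anti-Müllerian hormone (Amh), which embryonic Sertoli cells secrete to regress the Müllerian duct, and the inhibin and activin subunits.

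The arrays measured induced embryonic Sertoli-like cells (ieSCs), which are fibroblasts converted with transgenes for Nr5a1, Wt1, Dmrt1, Gata4 and Sox9, transcription factors of the embryonic gonad. Labelled total RNA was hybridised in 1 colour, giving 10 arrays with 5 names, 2 arrays to a name. It came from TTF-derived ieSCs (from female tail tip fibroblasts, 4 arrays) and MEF-derived ieSCs (from mouse embryonic fibroblasts, 4 arrays). The other 2 arrays held MEFs with none of these factor transgenes. All 3 groups, MEFs included, are labelled with a congenic strain homozygous for R26-M2rtTA, the doxycycline-dependent transactivator, and all were kept for 2 weeks in culture medium without doxycycline. No array held unconverted TTFs, so in the comparison of TTF-derived ieSCs with MEFs the tissue of origin and the conversion cannot be told apart. The labels do not say whether the 2 arrays of a name, or names 1 and 2 of a group, were separate cultures or clones, so the p-values reflect variation among arrays and names that may be technical.

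Levels are the log2 intensities that the authors deposited, so a difference of levels is a log2 fold change. They were already brought to nearly 1 common distribution, and a change in total mRNA per cell therefore cannot be seen in them. The 40th percentile of an array lay between 4.99 and 5.02, and a level below it is called dim here. Levels of different genes come from different features and are not set against each other. Over all features the 2 arrays of a name correlated at 0.9896 to 0.9966, arrays of one group with different names at 0.9878 to 0.9896, ieSC arrays of different origin at 0.9675 to 0.9754, and ieSC with MEF arrays at 0.926 to 0.9408.

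The labels were checked before the comparisons. Xist, the RNA of the inactive X chromosome, was dim on every array labelled as from female TTFs (3.77 to 4.35) and on every MEF-derived ieSC array (3.41 to 4.60), against 9.31 and 9.37 in MEFs. The Y-linked Eif2s3y was dim in TTF-derived ieSCs (3.42 to 4.01) and MEF-derived ieSCs (3.16 to 3.84), against 10.29 and 10.33 in MEFs. Both genes thus differed from MEFs on MEF-derived as well as TTF-derived ieSC arrays. Of the Sertoli markers, Dhh averaged 13.20, 12.21 and 5.47 in TTF-derived ieSCs, MEF-derived ieSCs and MEFs, and Wt1 averaged 17.06, 17.12 and 11.49. Kitl averaged 11.83, 11.94 and 8.48, Gdnf 12.17, 13.64 and 9.30, and Ptgds 14.66, 13.44 and 10.16. Sox8 averaged 6.65, 7.63 and 4.81, and Clu 18.09, 16.03 and 14.82. Sox9 averaged 7.48, 7.96 and 11.18, Gata4 5.61, 5.77 and 7.59, Dmrt1 7.90, 7.64 and 8.28, and Cldn11 4.81, 5.13 and 6.39. Clu in MEF-derived and Dmrt1 in TTF-derived ieSCs were not called against MEFs. The mean level of the 14 Sertoli markers was 9.71 to 9.98, 9.59 to 9.86, and 8.23 to 8.25 in that order. Their summed log2 level was 18.63 to 18.99, 17.43 to 18.44, and 15.18 to 15.22. Wt1, Sox9, Gata4 and Dmrt1 are among the transgenes, and the labels do not say whether their features read transgene RNA. Of 12 Sertoli markers tested, 7 were higher and 3 lower in TTF-derived ieSCs than in MEFs, and 6 higher and 4 lower in MEF-derived ieSCs than in MEFs, and the defining hormone Amh was at most 5.46 on any array.

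Between the groups, 53 of the 55 genes could be tested, because Amh and the pseudoreceptor Bambi did not exceed the 40th percentile on at least 2 arrays. With limma over all 16650 genes at an adjusted p of 0.05, 35 of the 53 differed between TTF-derived ieSCs and MEFs, 9 higher and 26 lower in the ieSCs, where 45.1% of all genes were called, 23.3% higher and 21.9% lower. Between MEF-derived ieSCs and MEFs 36 differed, 11 higher and 25 lower, where 51.2% of all genes were called, 27.2% higher and 24.0% lower. Between TTF-derived and MEF-derived ieSCs 26 differed, 14 higher and 12 lower in TTF-derived ieSCs, where 36.0% of all genes were called, 16.8% higher and 19.3% lower. As shares of the members tested these counts are 66%, 67.9% and 49.1%. The arrays of 2 groups did not overlap for 43 of the 53 members between TTF-derived ieSCs and MEFs (72.1% of all genes), for 45 between MEF-derived ieSCs and MEFs (76.3%), and for 30 between the ieSCs (48.3%).

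The members' differences were wide and mostly downward against MEFs. Bmp2, Bmp5, Gdf6, Gdf10, Grem1 and Smad9 passed the filter only through the MEF arrays, so a lower level in ieSCs was built into their selection. They enter the medians here, and all but Bmp5 enter the lower counts above and the class counts below. Their median log2 difference was -0.59 in TTF-derived ieSCs and -0.61 in MEF-derived ieSCs, each minus MEFs, against 0.06 and 0.10 over all genes tested. The median absolute difference was 1.21 and 1.13, against 0.47 and 0.54 over all genes. Between the ieSCs the median difference was -0.06, against -0.05 over all genes, and the median absolute difference 0.42, against 0.33. Both comparisons with MEFs use the same 2 MEF arrays, so their values stand side by side below and their likeness is not counted. With the 2 arrays of each name averaged before the fit, 10 of the 53 members were called between the ieSCs, where 14.5% of all genes were called. Averaging leaves 1 MEF value, which is assumed to vary like the 4 ieSC names, from which all the spread then comes. The number of calls against MEFs is therefore not given for that fit. Genes whose call was lost that way are named below with their adjusted p.

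**Figure D1:**
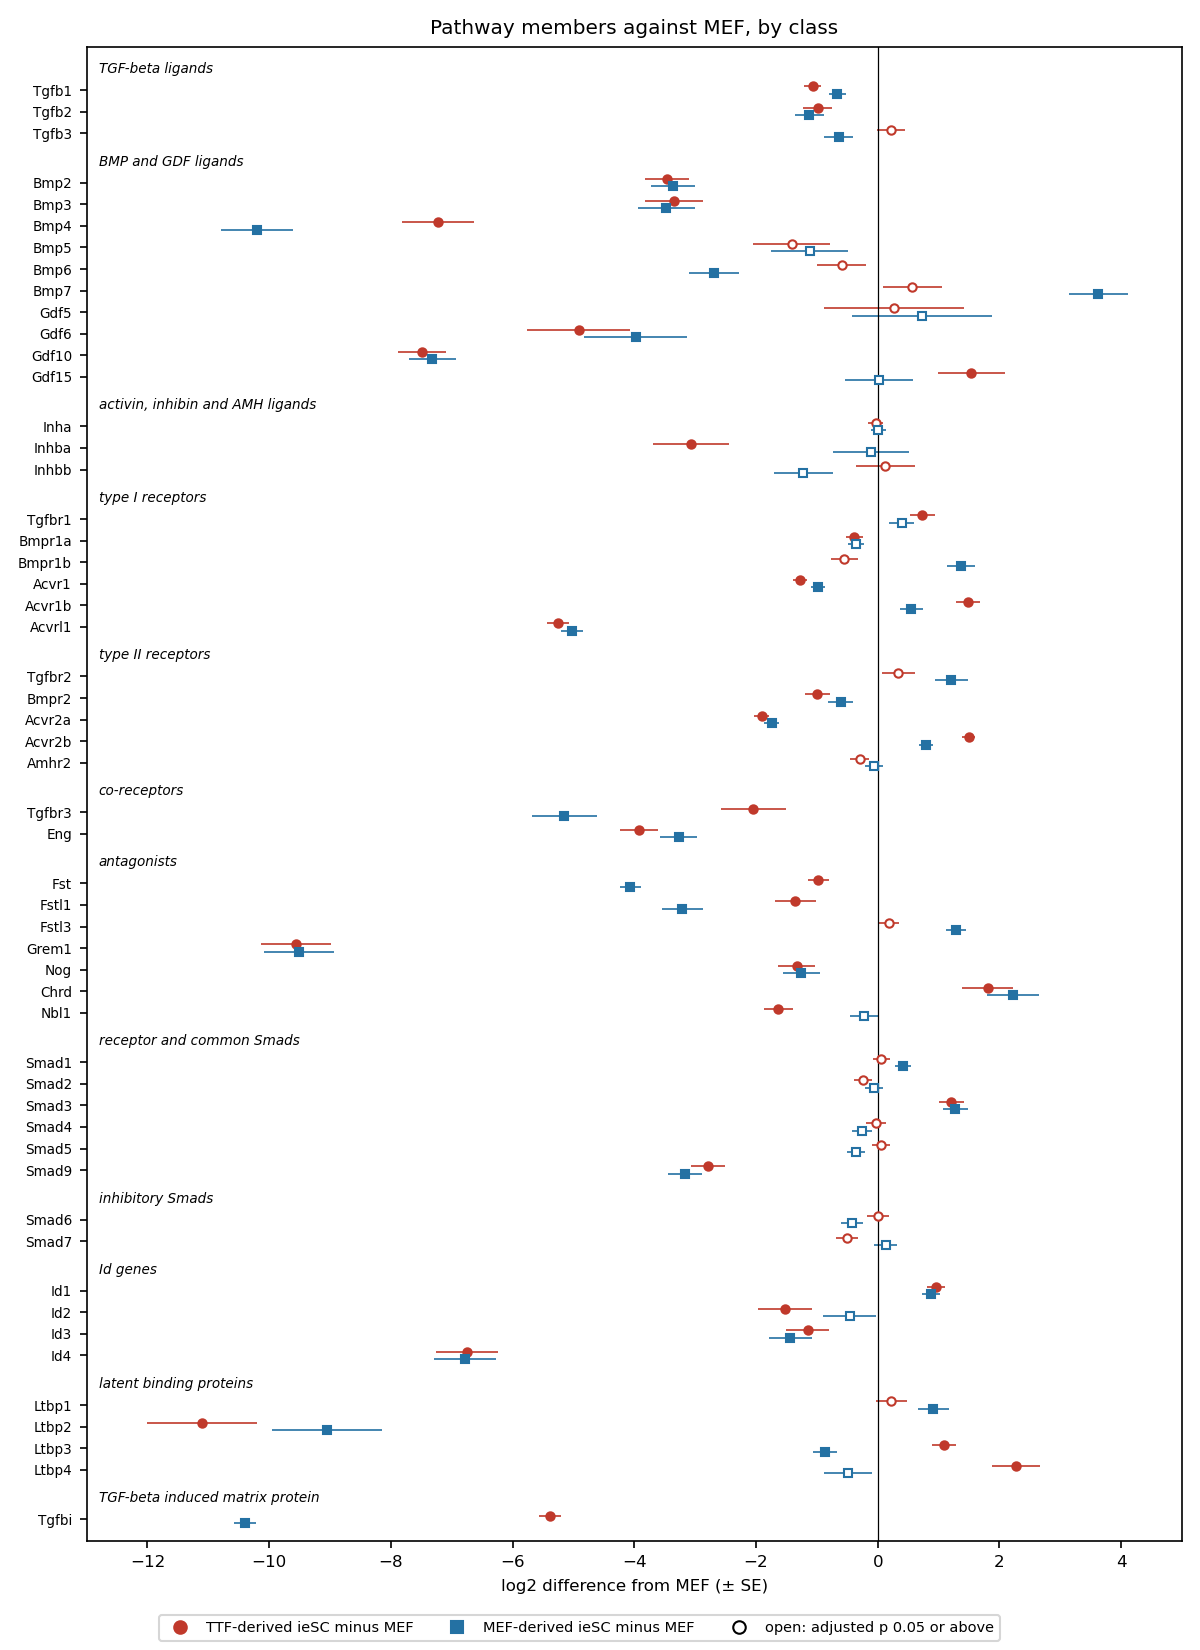
Log2 difference from MEFs for the 53 genes tested, by class, with TTF-derived ieSCs minus MEFs as red circles and MEF-derived ieSCs minus MEFs as blue squares. Bars are the SE of the fit, and open symbols have an adjusted p of 0.05 or above; Ltbp2 in TTF-derived ieSCs lies at -11.10, Tgfbi in MEF-derived ieSCs at -10.40, and most Smads lie near 0.

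Markers of other cells moved between the same groups. The mean level of 12 macrophage markers was 5.79 to 5.97 in TTF-derived ieSCs, 5.88 to 6.18 in MEF-derived ieSCs and 11.78 to 11.79 in MEFs. All 12 were above the 40th percentile on every MEF array, against 7 in TTF-derived and 6 in MEF-derived ieSCs, and the summed level of the list was 10.58 to 11.48, 11.35 to 11.69, and 16.36 to 16.41 on the log2 scale in that order of groups. C1qa, C1qc, Laptm5, Ctss and Tyrobp were dim in the group means of both ieSCs. The mean level of 12 fibroblast markers was 9.28 to 10.36 in TTF-derived ieSCs, 9.01 to 9.30 in MEF-derived ieSCs and 15.65 to 15.66 in MEFs, that of 7 smooth muscle and peritubular markers 9.45 to 9.54, 9.52 to 10.6, and 15.03, and that of 7 chondrocyte markers 6.08 to 6.36, 6.34 to 6.62, and 9.06 to 9.20. Summed levels of the fibroblast list were 19.49 to 19.67, 18.99 to 19.55, and 20.37 to 20.41 in that order of groups. Those of smooth muscle markers were 15.98 to 16.19, 17.44 to 18.68, and 19.88 to 19.93. Those of chondrocyte markers were 11.48 to 11.99, 13.58 to 14.5, and 14.62 to 14.68. Of 12 fibroblast markers, 1 was higher and 10 lower in TTF-derived ieSCs than in MEFs, and 0 higher and 9 lower in MEF-derived ieSCs. The 7 mesothelial markers ran the other way, with a mean level of 14.59 to 15.01 in TTF-derived ieSCs, 13.28 to 14.07 in MEF-derived ieSCs and 10.36 to 10.37 in MEFs. Their summed level was 19.18 to 19.55, 19.17 to 19.56, and 14.36 to 14.39 in that order of groups. Of the 7, 6 were higher and 0 lower in TTF-derived ieSCs than in MEFs, and 5 higher and 1 lower, Krt19, in MEF-derived ieSCs than in MEFs, with Msln at 4.68 ± 0.20 and 4.94 ± 0.20 and the transgene Wt1 in the list. The part of these cells in the differences from MEFs was not tested, and fewer cells of a type and less RNA per cell cannot be told apart in bulk RNA. Of 10 endothelial markers, Cdh5, Tie1 and Emcn were dim in every group mean, and the other 7 did not move one way.

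The 3 TGF-beta ligand genes lay above the 40th percentile on all 10 arrays, and Tgfb1 and Tgfb2 were lower in both kinds of ieSC than in MEFs. Tgfb1 had levels of 9.81, 9.85, 9.72 and 9.71 in TTF-derived ieSCs, 10.36, 10.34, 10.02 and 9.99 in MEF-derived ieSCs, and 10.87 and 10.81 in MEFs. The groups did not overlap, and TTF-derived ieSCs were lowest. The log2 difference was -1.07 ± 0.14 (adjusted p = 0.000204) for TTF-derived ieSCs minus MEFs and -0.67 ± 0.14 (adjusted p = 0.00325) for MEF-derived ieSCs minus MEFs. Between the ieSCs it was -0.40 ± 0.12 (adjusted p = 0.0216), TTF-derived minus MEF-derived. The 10 features of Tgfb1 gave -1.07 to -0.83, -0.67 to -0.48 and -0.44 to -0.23 in that order. On the feature at -0.23 the ieSCs overlapped, with a limma adjusted p of 0.443 between them and 0.0766 for MEF-derived ieSCs minus MEFs. Several other features also missed the threshold between the ieSCs.

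Tgfb2 had levels of 12.53, 12.56, 12.58 and 12.65 in TTF-derived ieSCs, 12.11, 12.04, 12.88 and 12.73 in MEF-derived ieSCs, and 13.60 and 13.53 in MEFs, so every ieSC array lay below both MEF arrays while the 2 kinds of ieSC overlapped. The difference from MEFs was -0.99 ± 0.24 (adjusted p = 0.00822) in TTF-derived ieSCs and -1.13 ± 0.24 (adjusted p = 0.0035) in MEF-derived ieSCs. A second Tgfb2 feature gave -1.08 for TTF-derived and -2.58 for MEF-derived ieSCs minus MEFs, and passed in neither comparison (adjusted p = 0.771 and 0.434 in the limma fit). On 1 array of MEF-derived name 1 that feature read 4.31, where the other 3 arrays of the group read 10.89, 11.40 and 11.45. Tgfb3 had levels of 16.84, 16.73, 16.71 and 16.62 in TTF-derived ieSCs, 15.62, 15.46, 16.27 and 16.14 in MEF-derived ieSCs, and 16.53 and 16.49 in MEFs. TTF-derived ieSCs lay above MEF-derived ieSCs on all arrays, by 0.86 ± 0.19 (adjusted p = 0.00704), and MEF-derived ieSCs lay below MEFs, with a log2 difference of -0.64 ± 0.24 (adjusted p = 0.0457). The difference of Tgfb3 between TTF-derived ieSCs and MEFs was 0.22 ± 0.24 (adjusted p = 0.506). The 10 features of Tgfb3 gave -0.90 to -0.53 for MEF-derived ieSCs minus MEFs and 0.73 to 0.99 between the ieSCs. For MEF-derived ieSCs minus MEFs the limma adjusted p was 0.0036 on the feature at -0.90 and 0.121 on that at -0.53. The fits with names or arrays averaged or left out below use 1 feature only. With arrays of each name averaged, the calls for Tgfb2 against MEFs were lost (adjusted p = 0.115 and 0.0777), as were Tgfb1 in MEF-derived ieSCs minus MEFs (0.0768), Tgfb1 between the ieSCs (0.182) and both Tgfb3 calls (0.197 and 0.111). Tgfb3 in MEF-derived ieSCs minus MEFs was also lost when any of the 4 ieSC names or 2 MEF arrays other than MEF-derived name 2 was left out, with a difference of -0.31 without MEF-derived name 1, and Tgfb1 between the ieSCs was lost without TTF-derived name 2 (-0.34) or MEF-derived name 1 (-0.23).

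Of the 10 BMP and GDF ligand genes, 5 were lower and 1 higher in TTF-derived ieSCs than in MEFs, and 6 were lower and 1 higher in MEF-derived ieSCs than in MEFs. The shares called were 60% and 70%, against 45.1% and 51.2% of all genes. Bmp4, a BMP ligand of mesoderm and germ cell specification, had levels of 9.57, 9.68, 7.82 and 7.69 in TTF-derived ieSCs, 5.55, 5.81, 5.91 and 5.57 in MEF-derived ieSCs, and 15.74 and 16.09 in MEFs. The 3 groups did not overlap, and in MEF-derived ieSCs the gene was near the dim range. The difference from MEFs was -7.23 ± 0.59 (adjusted p = 8.48e-06), 150-fold lower, in TTF-derived ieSCs, and -10.20 ± 0.59 (adjusted p = 7.39e-07), 1180-fold lower, in MEF-derived ieSCs. A second Bmp4 feature was dim on every array and not tested. It averaged 3.487 in TTF-derived ieSCs, 3.205 in MEF-derived ieSCs and 3.667 in MEFs. Between the ieSCs Bmp4 differed by 2.98 ± 0.48 (adjusted p = 0.0012), TTF-derived minus MEF-derived, a call lost with arrays of each name averaged (adjusted p = 0.0661). Without TTF-derived name 1 or name 2 the difference of TTF-derived ieSCs from MEFs was -8.16 or -6.29, and that between the ieSCs 2.05 or 3.91.

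Gdf10, also known as Bmp3b, had levels of 2.70, 3.36, 2.90 and 3.09 in TTF-derived ieSCs, 3.49, 3.37, 3.20 and 2.69 in MEF-derived ieSCs, and 10.55 and 10.47 in MEFs. It was dim on all 8 ieSC arrays. The difference from MEFs was -7.49 ± 0.39 (adjusted p = 4.7e-07) in TTF-derived and -7.32 ± 0.39 (adjusted p = 4.49e-07) in MEF-derived ieSCs, and with values below the 40th percentile set to it, -5.50 in both. Bmp2 was dim on all 8 ieSC arrays too, Gdf6 on all but 1 MEF-derived array, which read 6.26, and Bmp3 on 2 arrays of each kind of ieSC. Bmp2 was at 3.55 to 4.39 in TTF-derived and 3.96 to 4.36 in MEF-derived ieSCs, against 7.50 and 7.53 in MEFs. The difference was -3.46 ± 0.36 (adjusted p = 4.69e-05) in TTF-derived and -3.36 ± 0.36 (adjusted p = 4.77e-05) in MEF-derived ieSCs, and -2.51 in both with values below the 40th percentile set to it. Bmp3 differed from MEFs by -3.34 and -3.47, and Gdf6, a ligand of joint and skeletal patterning, by -4.91 and -3.98, in TTF-derived and MEF-derived ieSCs in that order (adjusted p at most 0.00343 in the limma fit). With values below the 40th percentile set to it, the differences were -3.19 and -3.30 for Bmp3 and -4.03 and -3.72 for Gdf6.

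Bmp7 and Bmp6 separated the 2 kinds of ieSC. Bmp7, a ligand of kidney and eye development, had levels of 6.62, 6.43, 7.88 and 7.63 in TTF-derived ieSCs, 9.84, 9.58, 10.64 and 10.71 in MEF-derived ieSCs, and 6.61 and 6.53 in MEFs. All MEF-derived ieSC arrays lay above all others, 12.3-fold above MEFs (3.62 ± 0.49 (adjusted p = 0.000203)), while TTF-derived ieSCs overlapped MEFs (0.57 ± 0.49 (adjusted p = 0.387)). The difference between the ieSCs was -3.05 ± 0.40 (adjusted p = 0.000344), TTF-derived minus MEF-derived, and -2.44 without TTF-derived name 1 or -3.67 without name 2. Bmp6 was at 7.17 to 8.35 in TTF-derived ieSCs, 5.45 to 6.09 in MEF-derived ieSCs and 8.23 to 8.52 in MEFs. It was lower in MEF-derived ieSCs than in MEFs with a log2 difference of -2.69 ± 0.41 (adjusted p = 0.000442) and higher in TTF-derived than in MEF-derived ieSCs by 2.09 ± 0.33 (adjusted p = 0.00109), where averaging the arrays of each name gave an adjusted p of 0.0508.

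Gdf15, a stress-induced distant member of the family, had levels of 12.21, 12.23, 11.20 and 11.18 in TTF-derived ieSCs, 11.00, 10.97, 9.31 and 9.47 in MEF-derived ieSCs, and 10.13 and 10.21 in MEFs. It was higher in TTF-derived ieSCs than in MEFs by 1.54 ± 0.55 (adjusted p = 0.0475) and than in MEF-derived ieSCs by 1.52 ± 0.45 (adjusted p = 0.0269). Both calls were lost with arrays of each name averaged (adjusted p = 0.248 and 0.213) and without TTF-derived name 1 (differences of 1.02 and 1.00). The call against MEFs was also lost without either MEF array (1.49 and 1.58), and that between the ieSCs without MEF-derived name 2 (0.72). Gdf5 and Bmp5 passed in no comparison, with Gdf5 at 5.79 to 6.80 in TTF-derived ieSCs, 6.04 to 8.64 in MEF-derived ieSCs and 6.01 to 6.02 in MEFs. Its second feature gave -1.64 and -1.58 for TTF-derived and MEF-derived ieSCs minus MEFs, against 0.27 and 0.73 for the feature used.

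Among the activin and inhibin subunits the 2 kinds of ieSC differed in opposite directions. Inhba, the beta A subunit shared by activin A and inhibin A, had levels of 12.15, 12.16, 11.07 and 11.07 in TTF-derived ieSCs, 15.56, 15.45, 13.58 and 13.67 in MEF-derived ieSCs, and 14.62 and 14.74 in MEFs. It was lower on every TTF-derived ieSC array than on any other array, with a log2 difference of -3.07 ± 0.63 (adjusted p = 0.00313) from MEFs and with a log2 difference of -2.95 ± 0.51 (adjusted p = 0.00182) from MEF-derived ieSCs. MEF-derived ieSCs minus MEFs gave -0.11 ± 0.63 (adjusted p = 0.903), with name 1 above and name 2 below the MEF arrays. Inhbb, the beta B subunit, had levels of 13.75, 13.60, 12.36 and 12.04 in TTF-derived ieSCs, 11.93, 11.79, 11.36 and 11.28 in MEF-derived ieSCs, and 12.87 and 12.75 in MEFs. It was higher in TTF-derived than in MEF-derived ieSCs by 1.35 ± 0.40 (adjusted p = 0.0249), with no call against MEFs (0.13 ± 0.49 (adjusted p = 0.866) in TTF-derived and -1.22 ± 0.49 (adjusted p = 0.0602) in MEF-derived ieSCs). The alpha subunit Inha, which makes the dimer an inhibin, was at 9.48 to 9.73 on all 10 arrays, and its 3 differences were at most 0.05 in size. Amh was at 3.65 to 4.53 in TTF-derived ieSCs, 4.32 to 5.46 in MEF-derived ieSCs and 4.17 to 4.31 in MEFs, with 1 MEF-derived ieSC array above its 40th percentile. With arrays of each name averaged the Inhba calls were lost (adjusted p = 0.0911 against MEFs and 0.085 between the ieSCs), and so was Inhbb (0.192), which was also lost without TTF-derived name 1 (0.61) or MEF-derived name 2 (1.08). Without MEF-derived name 1 or name 2 the Inhba difference between the ieSCs was -2.01 or -3.89, and without TTF-derived name 2 that of Inhbb was 2.09.

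**Figure D2:**
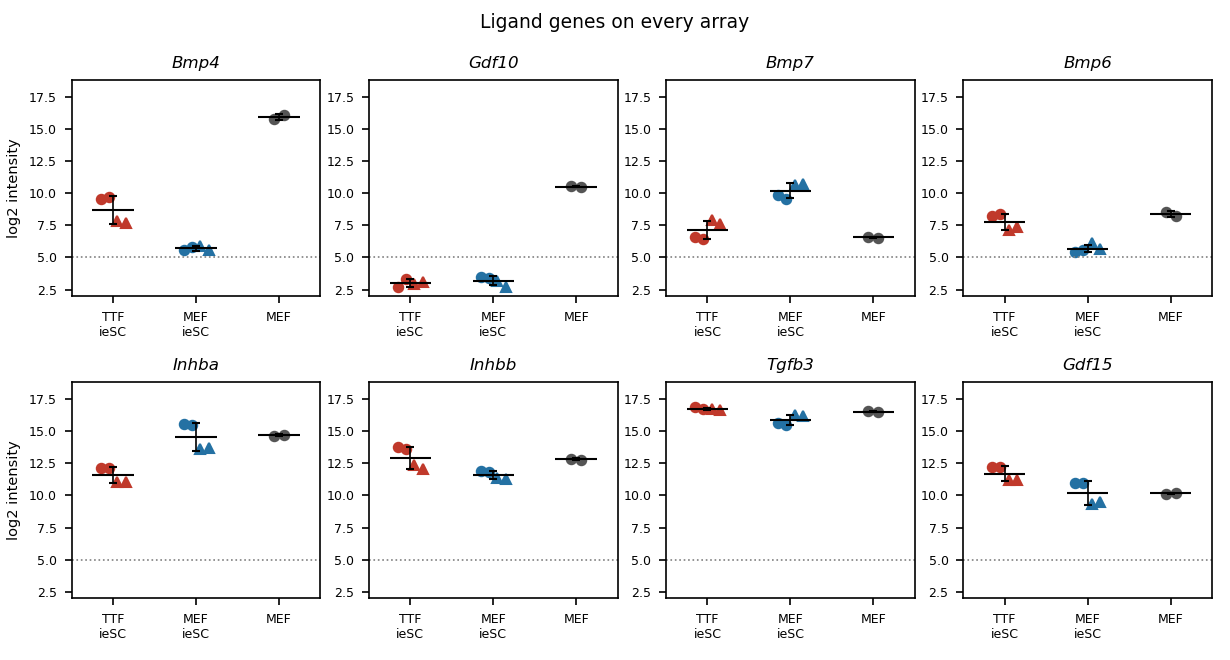
Log2 intensity of 8 ligand genes on every array of TTF-derived ieSCs, MEF-derived ieSCs and MEFs. Circles are name 1 and triangles name 2 of a group, grey circles the MEF arrays, horizontal bars the group mean with its SD, and the dotted line the mean 40th percentile of the arrays; Bmp4 and Gdf10 stand apart in MEFs, Bmp7 in MEF-derived ieSCs and Inhba in TTF-derived ieSCs.

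Receptor genes changed in both directions. Of 6 type I receptor genes, 2 were higher and 3 lower in TTF-derived ieSCs than in MEFs, and 2 higher and 2 lower in MEF-derived ieSCs than in MEFs. These calls make up 83.3% and 66.7%, against 45.1% and 51.2% of all genes. Acvrl1 (ALK1), the type I receptor for BMP9 and BMP10 best known from endothelium, had levels of 6.93, 7.18, 6.94 and 7.03 in TTF-derived ieSCs, 7.42, 7.46, 7.01 and 7.08 in MEF-derived ieSCs, and 12.29 and 12.25 in MEFs. Every ieSC array lay far below both MEF arrays. The difference was -5.25 ± 0.18 (adjusted p = 4.48e-08), 38-fold lower, in TTF-derived and -5.03 ± 0.18 (adjusted p = 5.56e-08), 32.6-fold lower, in MEF-derived ieSCs, and -0.22 ± 0.15 (adjusted p = 0.296) between them. The 10 endothelial markers had a summed level of 12.53 to 12.81 in TTF-derived ieSCs, 12.64 to 12.82 in MEF-derived ieSCs and 13.97 to 14.04 in MEFs. Of 7 tested, 2 were higher and 1 lower in TTF-derived ieSCs than in MEFs, and 1 higher and 2 lower in MEF-derived ieSCs than in MEFs. Flt1 differed from MEFs by -8.01 and -5.63, Esam by 6.54 and 6.74, and Tek by 3.87 and 0.68, in TTF-derived and MEF-derived ieSCs in that order, with no call for Tek in MEF-derived ieSCs (adjusted p = 0.274 in the limma fit). Their part in the Acvrl1 difference was not tested.

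Acvr1b (ALK4), the type I receptor for activin and Nodal, went the other way, with levels of 12.06, 11.87, 12.36 and 12.46 in TTF-derived ieSCs, 11.23, 11.18, 11.28 and 11.35 in MEF-derived ieSCs, and 10.78 and 10.64 in MEFs. The 3 groups did not overlap, with TTF-derived ieSCs highest and MEFs lowest. It was higher than in MEFs by 1.48 ± 0.19 (adjusted p = 0.000185) in TTF-derived and 0.55 ± 0.19 (adjusted p = 0.0365) in MEF-derived ieSCs, and TTF-derived exceeded MEF-derived ieSCs by 0.93 ± 0.16 (adjusted p = 0.00153). Bmpr1b (ALK6), a BMP type I receptor of cartilage and gonad, had levels of 7.88, 8.03, 8.52 and 8.54 in TTF-derived ieSCs, 9.95, 10.09, 10.33 and 10.26 in MEF-derived ieSCs, and 8.74 and 8.84 in MEFs. It was highest in MEF-derived ieSCs, by 1.37 ± 0.22 (adjusted p = 0.000721) over MEFs and with -1.92 ± 0.18 (adjusted p = 5.25e-05) for TTF-derived minus MEF-derived ieSCs, while TTF-derived ieSCs minus MEFs gave -0.55 ± 0.22 (adjusted p = 0.0753), and 0.20 with its second feature.

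Acvr1 (ALK2), a BMP and activin type I receptor, was lower in TTF-derived ieSCs with a log2 difference of -1.27 ± 0.11 (adjusted p = 1.59e-05) and in MEF-derived ieSCs with a log2 difference of -0.98 ± 0.11 (adjusted p = 8.07e-05) than in MEFs, and lower in TTF-derived than in MEF-derived ieSCs with a log2 difference of -0.30 ± 0.09 (adjusted p = 0.0334). Tgfbr1 (ALK5), the type I receptor for TGF-beta, was higher in TTF-derived ieSCs than in MEFs by 0.73 ± 0.21 (adjusted p = 0.0166), against 0.40 ± 0.21 (adjusted p = 0.142) in MEF-derived ieSCs. Bmpr1a (ALK3) differed from MEFs by -0.38 ± 0.14 (adjusted p = 0.0471) in TTF-derived and -0.36 ± 0.14 (adjusted p = 0.0549) in MEF-derived ieSCs. With arrays of each name averaged, these type I receptor calls were lost: Tgfbr1 (adjusted p = 0.158), Bmpr1a (0.192), Acvr1b in MEF-derived ieSCs (0.147), and Acvr1 and Acvr1b between the ieSCs (0.174 and 0.0567). Leaving out 1 name or MEF array also ended calls for Tgfbr1 without TTF-derived name 1 (0.69), Bmpr1a without TTF-derived name 1 (-0.26) or MEF array a or b (-0.40 and -0.36), Acvr1b in MEF-derived ieSCs without MEF-derived name 1 or 2 or MEF array b (0.61, 0.50 and 0.48), and Acvr1 between the ieSCs without TTF-derived name 2 or MEF-derived name 1 or 2 (-0.21, -0.29 and -0.30).

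Of 5 type II receptor genes, the 2 activin receptors moved in opposite directions from MEFs in both kinds of ieSC. Acvr2a had levels of 8.05, 8.10, 8.26 and 8.28 in TTF-derived ieSCs, 8.25, 8.27, 8.44 and 8.40 in MEF-derived ieSCs, and 10.04 and 10.12 in MEFs. It was lower than in MEFs on every ieSC array, with a log2 difference of -1.91 ± 0.12 (adjusted p = 1.62e-06) in TTF-derived and -1.74 ± 0.12 (adjusted p = 2.42e-06) in MEF-derived ieSCs. Acvr2b had levels of 11.75, 11.72, 11.80 and 11.87 in TTF-derived ieSCs, 11.06, 11.05, 11.16 and 11.08 in MEF-derived ieSCs, and 10.34 and 10.25 in MEFs. It was higher than in MEFs on every ieSC array, by 1.50 ± 0.11 (adjusted p = 4.66e-06) in TTF-derived and 0.80 ± 0.11 (adjusted p = 0.000259) in MEF-derived ieSCs, and TTF-derived exceeded MEF-derived ieSCs by 0.70 ± 0.09 (adjusted p = 0.000336).

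Tgfbr2, the type II receptor for TGF-beta, had levels of 15.69, 15.63, 16.33 and 16.16 in TTF-derived ieSCs, 16.51, 16.52, 17.17 and 17.10 in MEF-derived ieSCs, and 15.63 and 15.61 in MEFs. Every MEF-derived ieSC array lay above every other array, and the difference was 1.21 ± 0.27 (adjusted p = 0.00455) from MEFs and -0.87 ± 0.22 (adjusted p = 0.0128) for TTF-derived minus MEF-derived ieSCs. Bmpr2, the type II receptor for BMPs, was lower in TTF-derived ieSCs with a log2 difference of -0.99 ± 0.21 (adjusted p = 0.00333) and in MEF-derived ieSCs with a log2 difference of -0.61 ± 0.21 (adjusted p = 0.0342) than in MEFs. Amhr2, the receptor for Amh, was at 6.64 to 7.17 on all arrays and passed in no comparison. With arrays of each name averaged the calls were lost for Tgfbr2 (adjusted p = 0.0878 against MEFs and 0.152 between the ieSCs) and for Bmpr2 in MEF-derived ieSCs (0.0578). Tgfbr2 between the ieSCs was lost without TTF-derived name 1 (-0.58) or MEF-derived name 2 (-0.56), and Bmpr2 in MEF-derived ieSCs without MEF-derived name 2 (-0.53) or MEF array a (-0.50).

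Both co-receptor genes were lower in ieSCs than in MEFs. Eng (endoglin), which works with Acvrl1, had levels of 6.66, 6.67, 5.97 and 5.93 in TTF-derived ieSCs, 7.36, 7.07, 6.82 and 6.59 in MEF-derived ieSCs, and 10.28 and 10.18 in MEFs. All ieSC arrays lay below both MEF arrays, with a log2 difference of -3.92 ± 0.31 (adjusted p = 6.48e-06) in TTF-derived and -3.27 ± 0.31 (adjusted p = 1.82e-05) in MEF-derived ieSCs. Tgfbr3 (betaglycan), which presents TGF-beta2 and inhibin to the receptors, had levels of 11.50, 11.60, 12.03 and 12.21 in TTF-derived ieSCs, 7.91, 7.81, 9.60 and 9.59 in MEF-derived ieSCs, and 13.87 and 13.88 in MEFs. The 3 groups did not overlap, and MEF-derived ieSCs were lowest. Tgfbr3 differed from MEFs by -2.04 ± 0.54 (adjusted p = 0.0118) in TTF-derived and -5.15 ± 0.54 (adjusted p = 3.75e-05), 35.5-fold lower, in MEF-derived ieSCs, and by 3.11 ± 0.44 (adjusted p = 0.000548) between the ieSCs. The call in TTF-derived ieSCs against MEFs was lost with arrays of each name averaged (adjusted p = 0.144) and without TTF-derived name 1 (-1.76), and that between the ieSCs with averaging (0.0596). Without MEF-derived name 1 or name 2 the difference of MEF-derived ieSCs from MEFs was -4.28 or -6.02, and that between the ieSCs 2.24 or 3.97.

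**Figure D3:**
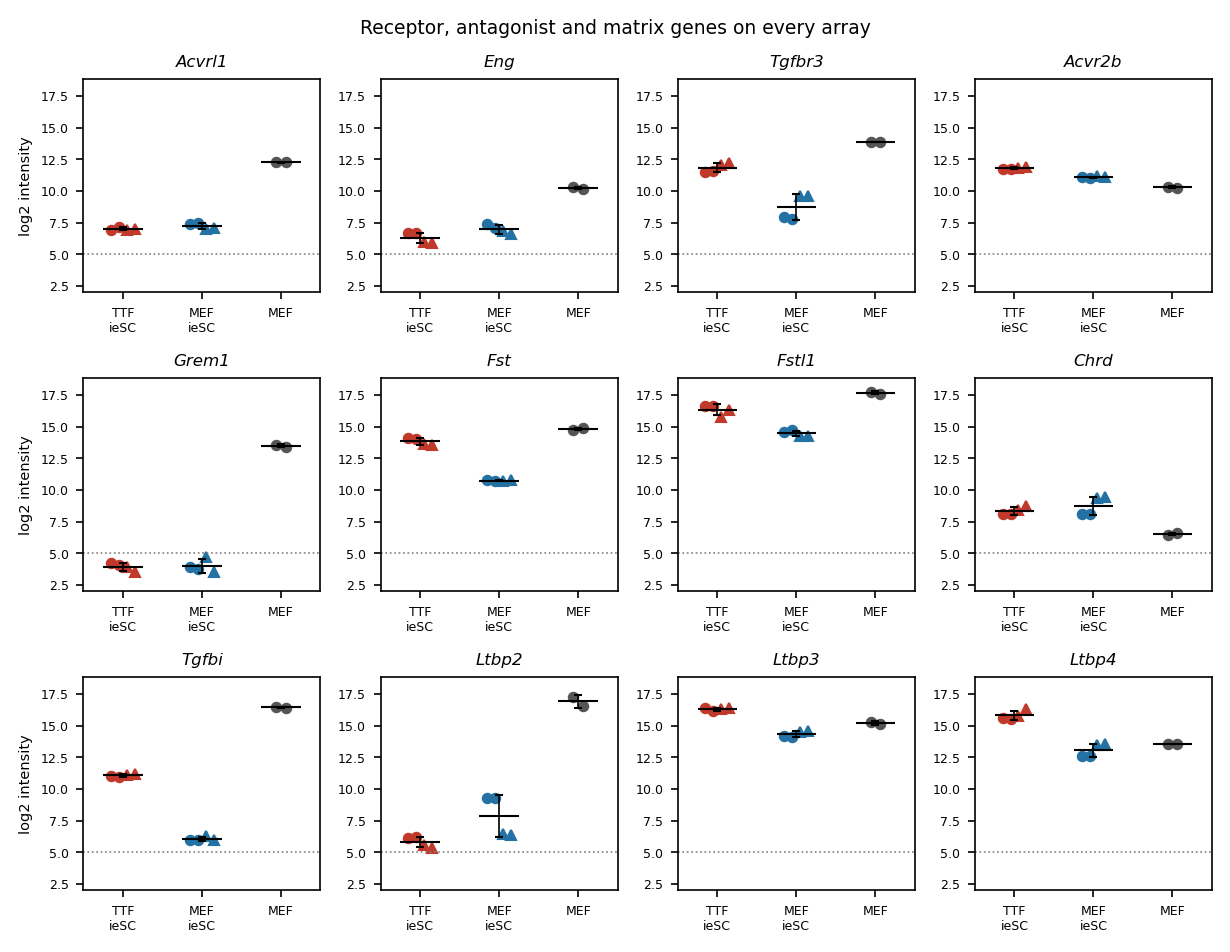
Log2 intensity of receptor, co-receptor, antagonist, latent binding protein and Tgfbi genes on every array of TTF-derived ieSCs, MEF-derived ieSCs and MEFs. Circles are name 1 and triangles name 2 of a group, grey circles the MEF arrays, horizontal bars the group mean with its SD, and the dotted line the mean 40th percentile; Acvrl1, Grem1, Ltbp2 and Tgfbi are far higher in MEFs than in either kind of ieSC, while Acvr2b is highest in TTF-derived ieSCs.

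Of the 7 antagonist genes tested, 5 were lower and 1 higher in TTF-derived ieSCs than in MEFs, and 4 were lower and 2 higher in MEF-derived ieSCs than in MEFs. The share called was 85.7% in both, against 45.1% and 51.2% of all genes. Grem1, a BMP antagonist that binds Bmp2, Bmp4 and Bmp7 directly, had levels of 4.24, 4.06, 3.92 and 3.49 in TTF-derived ieSCs, 3.90, 3.80, 4.74 and 3.49 in MEF-derived ieSCs, and 13.56 and 13.42 in MEFs. It was dim on all 8 ieSC arrays. The difference from MEFs was -9.57 ± 0.58 (adjusted p = 1.18e-06) in TTF-derived and -9.51 ± 0.58 (adjusted p = 9.65e-07) in MEF-derived ieSCs, and -8.49 in both with values below the 40th percentile set to it. Nog (noggin), another BMP antagonist, was lower with a log2 difference of -1.33 ± 0.30 (adjusted p = 0.00505) and -1.25 ± 0.30 (adjusted p = 0.00625) in TTF-derived and MEF-derived ieSCs than in MEFs.

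Chrd (chordin) moved up, with levels of 8.07, 8.13, 8.41 and 8.72 in TTF-derived ieSCs, 8.10, 8.13, 9.34 and 9.43 in MEF-derived ieSCs, and 6.45 and 6.60 in MEFs. All ieSC arrays lay above both MEF arrays, by 1.81 ± 0.42 (adjusted p = 0.00639) in TTF-derived and 2.23 ± 0.42 (adjusted p = 0.00176) in MEF-derived ieSCs. Both Chrd calls were lost with arrays of each name averaged (adjusted p = 0.105 and 0.0597), and the difference of MEF-derived ieSCs from MEFs was 2.86 without MEF-derived name 1 and 1.59 without name 2. Nbl1 (Dan) was lower in TTF-derived ieSCs than in MEFs with a log2 difference of -1.63 ± 0.24 (adjusted p = 0.000373) and than in MEF-derived ieSCs by -1.41 ± 0.19 (adjusted p = 0.000458), and MEF-derived ieSCs minus MEFs gave -0.22 ± 0.24 (adjusted p = 0.474). Bambi, a pseudoreceptor, was dim on every array.

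Follistatin and its relatives separated the 2 kinds of ieSC. Fst (follistatin), which binds and neutralises activin, had levels of 14.07, 14.03, 13.66 and 13.57 in TTF-derived ieSCs, 10.79, 10.68, 10.74 and 10.76 in MEF-derived ieSCs, and 14.74 and 14.87 in MEFs. MEF-derived ieSCs lay far below both other groups, 16.7-fold below MEFs (-4.06 ± 0.17 (adjusted p = 1.08e-07)) and 8.51-fold below TTF-derived ieSCs (3.09 ± 0.14 (adjusted p = 4.44e-07), TTF-derived minus MEF-derived). TTF-derived ieSCs were below MEFs with a log2 difference of -0.97 ± 0.17 (adjusted p = 0.00124). Fstl1, a secreted relative of follistatin, had levels of 16.65, 16.61, 15.73 and 16.31 in TTF-derived ieSCs, 14.54, 14.75, 14.29 and 14.28 in MEF-derived ieSCs, and 17.76 and 17.59 in MEFs, in the same order of groups. It differed from MEFs by -1.35 ± 0.34 (adjusted p = 0.00934) in TTF-derived and -3.21 ± 0.34 (adjusted p = 4.08e-05) in MEF-derived ieSCs, and by 1.86 ± 0.28 (adjusted p = 0.000757) between the ieSCs, and its call in TTF-derived ieSCs against MEFs was lost with arrays of each name averaged (adjusted p = 0.0554). Fstl3, which also binds activin, ran the other way, higher in MEF-derived ieSCs than in MEFs by 1.29 ± 0.16 (adjusted p = 0.000109), with -1.10 ± 0.13 (adjusted p = 0.000175) for TTF-derived minus MEF-derived ieSCs.

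The latent TGF-beta binding proteins tether latent ligand to the extracellular matrix, and their 4 genes each had a pattern of their own. Ltbp2, a member of the family that does not bind latent TGF-beta itself, had levels of 6.12, 6.17, 5.60 and 5.36 in TTF-derived ieSCs, 9.30, 9.29, 6.48 and 6.36 in MEF-derived ieSCs, and 17.26 and 16.56 in MEFs. It was high on both MEF arrays alone, 2190-fold lower in TTF-derived ieSCs (-11.10 ± 0.90 (adjusted p = 8.24e-06)) and 531-fold lower in MEF-derived ieSCs (-9.05 ± 0.90 (adjusted p = 2.74e-05)). In TTF-derived ieSCs the gene was near the dim range, so the 2190-fold figure depends on how dim levels read. In MEF-derived ieSCs the log2 difference was -10.49 without name 1 and -7.61 without name 2. Ltbp3 had levels of 16.36, 16.12, 16.29 and 16.40 in TTF-derived ieSCs, 14.19, 14.10, 14.51 and 14.55 in MEF-derived ieSCs, and 15.30 and 15.11 in MEFs. It was higher than in MEFs in TTF-derived ieSCs, by 1.09 ± 0.20 (adjusted p = 0.00166), and lower than in MEFs in MEF-derived ieSCs, with a log2 difference of -0.87 ± 0.20 (adjusted p = 0.00524). The difference between the ieSCs was 1.96 ± 0.16 (adjusted p = 2.34e-05).

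Ltbp4 had levels of 15.58, 15.54, 15.79 and 16.35 in TTF-derived ieSCs, 12.61, 12.57, 13.50 and 13.53 in MEF-derived ieSCs, and 13.54 and 13.54 in MEFs. It was 4.83-fold higher in TTF-derived ieSCs than in MEFs (2.27 ± 0.39 (adjusted p = 0.00107)) and 6.78-fold higher than in MEF-derived ieSCs (2.76 ± 0.32 (adjusted p = 0.000162)), and MEF-derived ieSCs minus MEFs gave -0.49 ± 0.39 (adjusted p = 0.332). Its 3 features gave 0.54 to 2.35 for TTF-derived ieSCs minus MEFs. Ltbp1 had levels of 13.23, 13.18, 12.50 and 12.49 in TTF-derived ieSCs, 13.30, 13.35, 13.71 and 13.79 in MEF-derived ieSCs, and 12.64 and 12.61 in MEFs. It was higher in MEF-derived ieSCs than in MEFs by 0.91 ± 0.26 (adjusted p = 0.0144), and TTF-derived minus MEF-derived ieSCs gave -0.69 ± 0.21 (adjusted p = 0.0284). Both Ltbp1 calls were lost with arrays of each name averaged (adjusted p = 0.144 and 0.213) and without MEF-derived name 2 (0.70 and -0.48), and that between the ieSCs without TTF-derived name 2 (-0.34).

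Of the 8 Smads, which carry the signal inside the cell, 2 were called between TTF-derived ieSCs and MEFs (25%), 3 between MEF-derived ieSCs and MEFs (37.5%), and 3 between the ieSCs (37.5%). The shares over all genes were 45.1%, 51.2% and 36.0% in that order. Smad3, the receptor Smad of TGF-beta and activin that binds DNA directly, had levels of 14.54, 14.49, 14.92 and 14.85 in TTF-derived ieSCs, 14.61, 14.53, 14.89 and 15.02 in MEF-derived ieSCs, and 13.41 and 13.57 in MEFs. All ieSC arrays lay above both MEF arrays, by 1.21 ± 0.20 (adjusted p = 0.000925) in TTF-derived and 1.28 ± 0.20 (adjusted p = 0.000588) in MEF-derived ieSCs. Smad9 (Smad8), a receptor Smad of BMPs, had levels of 4.87, 5.06, 4.47 and 4.28 in TTF-derived ieSCs, 4.45, 4.31, 4.38 and 4.03 in MEF-derived ieSCs, and 7.45 and 7.47 in MEFs. It was dim or nearly dim on the ieSC arrays and lower than in MEFs with a log2 difference of -2.79 ± 0.27 (adjusted p = 2.9e-05) in TTF-derived and -3.17 ± 0.27 (adjusted p = 1.05e-05) in MEF-derived ieSCs, or -2.44 and -2.45 with values below the 40th percentile set to it.

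The other Smads moved little. Smad1 had levels of 9.65, 9.58, 9.61 and 9.50 in TTF-derived ieSCs, 9.97, 9.94, 10.02 and 9.83 in MEF-derived ieSCs, and 9.56 and 9.49 in MEFs. MEF-derived ieSCs lay above the other groups, by 0.42 ± 0.13 (adjusted p = 0.0267) from MEFs, with -0.35 ± 0.11 (adjusted p = 0.0305) for TTF-derived minus MEF-derived ieSCs. Smad5 had levels of 13.79, 13.77, 13.76 and 13.96 in TTF-derived ieSCs, 13.31, 13.33, 13.54 and 13.45 in MEF-derived ieSCs, and 13.71 and 13.83 in MEFs, with 0.41 ± 0.12 (adjusted p = 0.0227) for TTF-derived minus MEF-derived ieSCs. The inhibitory Smad7, which recruits ubiquitin ligases to the receptors, had levels of 10.09, 9.93, 9.98 and 9.97 in TTF-derived ieSCs, 10.88, 10.82, 10.50 and 10.31 in MEF-derived ieSCs, and 10.49 and 10.50 in MEFs. It was lower in TTF-derived than in MEF-derived ieSCs with a log2 difference of -0.64 ± 0.15 (adjusted p = 0.00995), with no call against MEFs (-0.50 ± 0.19 (adjusted p = 0.0531) and 0.13 ± 0.19 (adjusted p = 0.596) for TTF-derived and MEF-derived ieSCs).

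Smad2, Smad4 (the common partner) and the inhibitory Smad6 passed in no comparison. Their differences from MEFs were -0.24 ± 0.15, -0.03 ± 0.17 and 0.00 ± 0.19 in TTF-derived ieSCs, and -0.06 ± 0.15, -0.26 ± 0.17 and -0.42 ± 0.19 in MEF-derived ieSCs. A p that misses the threshold does not show that their levels were equal. The small calls for Smad1, Smad5 and Smad7 were lost with arrays of each name averaged (adjusted p = 0.0792 for Smad1 against MEFs, and 0.104, 0.104 and 0.106 for Smad1, Smad5 and Smad7 between the ieSCs). Smad1 against MEFs was also lost with the mean of its 3 features (0.06), without MEF-derived name 1 (0.40) or MEF array b (0.38), Smad1 between the ieSCs with that mean (-0.13) and without TTF-derived name 2 (-0.32) or MEF-derived name 1 (-0.34), and Smad5 with the mean of its features (0.41) and without MEF-derived name 1 (0.33).

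The Id genes encode helix-loop-helix proteins without a DNA-binding region, which block other helix-loop-helix factors. Of the 4 genes, 1 was higher and 3 lower in TTF-derived ieSCs than in MEFs, and 1 was higher and 2 lower in MEF-derived ieSCs than in MEFs. That is 100% and 75% called, against 45.1% and 51.2% of all genes. Id1 had levels of 14.71, 14.58, 14.91 and 14.71 in TTF-derived ieSCs, 14.71, 14.75, 14.52 and 14.59 in MEF-derived ieSCs, and 13.75 and 13.79 in MEFs. All ieSC arrays lay above both MEF arrays, by 0.96 ± 0.15 (adjusted p = 0.000664) in TTF-derived and 0.88 ± 0.15 (adjusted p = 0.00101) in MEF-derived ieSCs, and the 2 kinds of ieSC overlapped. Id3 had levels of 14.97, 14.95, 14.47 and 14.40 in TTF-derived ieSCs, 14.97, 14.94, 13.86 and 13.89 in MEF-derived ieSCs, and 15.91 and 15.79 in MEFs. It was lower than in MEFs with a log2 difference of -1.15 ± 0.36 (adjusted p = 0.0258) in TTF-derived and -1.44 ± 0.36 (adjusted p = 0.00805) in MEF-derived ieSCs.

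Id4 had levels of 5.35, 5.50, 4.89 and 5.18 in TTF-derived ieSCs, 6.02, 5.81, 4.71 and 4.24 in MEF-derived ieSCs, and 12.03 and 11.93 in MEFs. Both kinds of ieSC lay around the 40th percentile and far below both MEF arrays, with a log2 difference of -6.75 ± 0.50 (adjusted p = 4.76e-06) in TTF-derived and -6.78 ± 0.50 (adjusted p = 3.83e-06) in MEF-derived ieSCs. The gene was dim on 1 TTF-derived and 2 MEF-derived arrays, and with values below the 40th percentile set to it the differences were -6.72 and -6.51. Without MEF-derived name 1 or name 2 that of MEF-derived ieSCs was -7.50 or -6.06. Id2 had levels of 12.39, 12.47, 12.40 and 12.39 in TTF-derived ieSCs, 14.13, 14.27, 12.67 and 12.82 in MEF-derived ieSCs, and 13.85 and 14.03 in MEFs. It was lower in TTF-derived ieSCs than in MEFs with a log2 difference of -1.52 ± 0.44 (adjusted p = 0.0186) and than in MEF-derived ieSCs with a log2 difference of -1.06 ± 0.36 (adjusted p = 0.0452), while MEF-derived ieSCs minus MEFs gave -0.46 ± 0.44 (adjusted p = 0.418), with name 1 around the MEF level and name 2 near the TTF-derived level.

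Most Id2 and Id3 calls rested on few names. With arrays of each name averaged, those of Id2 (adjusted p = 0.165 against MEFs and 0.246 between the ieSCs) and Id3 (0.193 in TTF-derived and 0.118 in MEF-derived ieSCs) were lost. Id2 in TTF-derived ieSCs minus MEFs was lost without TTF-derived name 1 or 2 or MEF array b (-1.54, -1.50 and -1.43), and Id2 between the ieSCs when any of the 4 ieSC names or 2 MEF arrays other than MEF-derived name 2 was left out, with a difference of -0.33 without MEF-derived name 1. Id3 in TTF-derived ieSCs minus MEFs was lost without TTF-derived name 2 (-0.89) or MEF array a (-1.10).

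**Figure D4:**
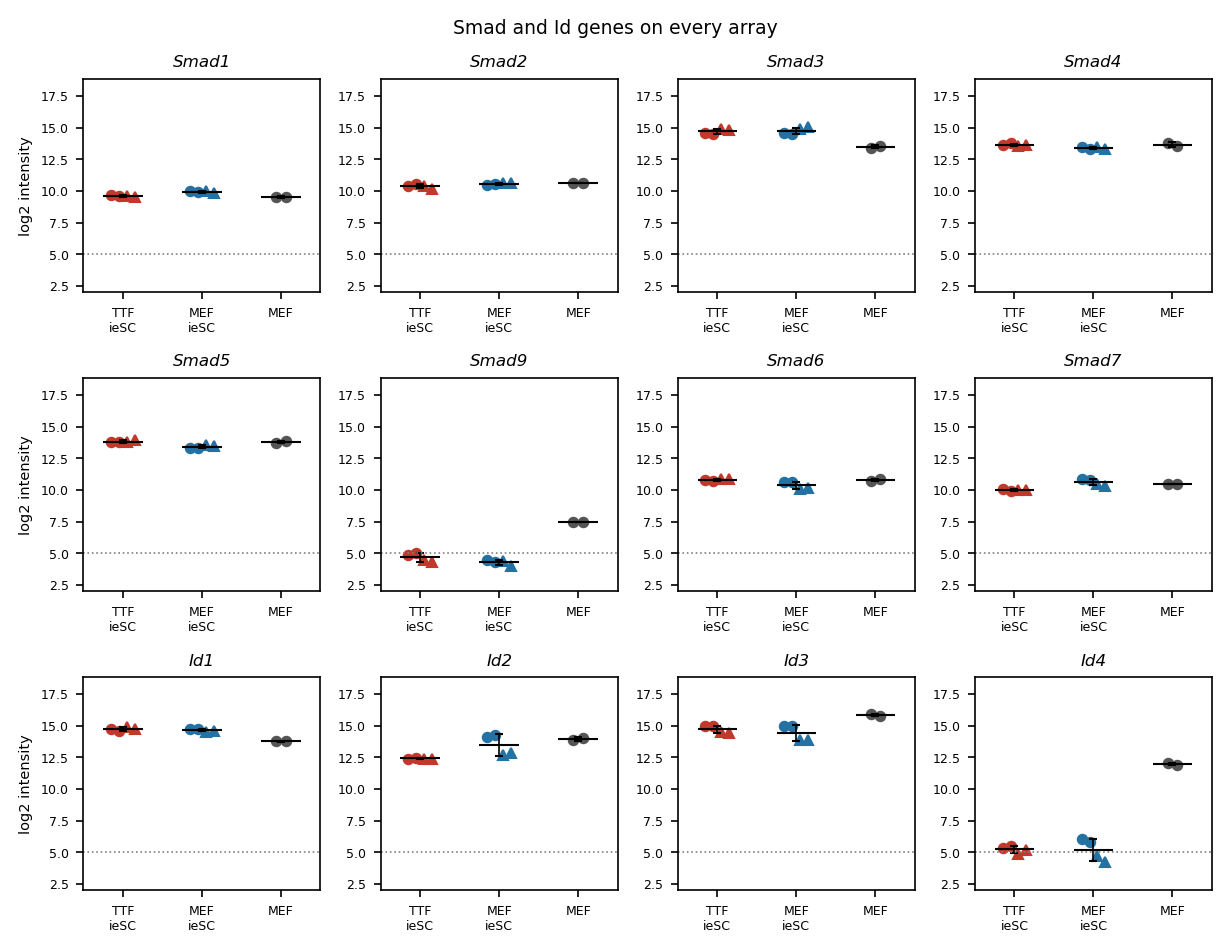
Log2 intensity of the 8 Smad and 4 Id genes on every array of TTF-derived ieSCs, MEF-derived ieSCs and MEFs. Circles are name 1 and triangles name 2 of a group, grey circles the MEF arrays, horizontal bars the group mean with its SD, and the dotted line the mean 40th percentile; Smad9 and Id4 are far higher in MEFs, Smad3 and Id1 are higher in ieSCs, and Id2 differs between the names of MEF-derived ieSCs.

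Tgfbi, a secreted matrix protein that TGF-beta induces, had the largest difference of any member between the ieSCs, with levels of 11.02, 10.92, 11.14 and 11.19 in TTF-derived ieSCs, 5.95, 5.96, 6.30 and 5.99 in MEF-derived ieSCs, and 16.48 and 16.41 in MEFs. No 2 groups overlapped. In MEF-derived ieSCs the gene was near the dim range, so the folds that involve this group depend on how dim levels read. It was 41.6-fold lower than in MEFs in TTF-derived ieSCs (-5.38 ± 0.18 (adjusted p = 3.78e-08)) and 1350-fold lower in MEF-derived ieSCs (-10.40 ± 0.18 (adjusted p = 4.94e-09)), and 32.4-fold higher in TTF-derived than in MEF-derived ieSCs (5.02 ± 0.15 (adjusted p = 5.53e-08)).

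The promoters of Id2, Id3, Id4 and Tgfbi are printed because these response genes were lower than in MEFs in at least 1 kind of ieSC, and the choice was made with their values known. Each is the 250 bases before the RefSeq start of the gene on GRCm38.p6, 5′ to 3′ on the gene's strand, with the letters of GGCGCC and of CAGAC in capitals on either strand, both short motifs that Smads can bind. Id1 and other members without a window here are named only. Member windows on 1 chromosome were left out of the counts below, while the counts over all windows were not restricted in this way.
Id2, chr12:25096093-25096342, minus strand: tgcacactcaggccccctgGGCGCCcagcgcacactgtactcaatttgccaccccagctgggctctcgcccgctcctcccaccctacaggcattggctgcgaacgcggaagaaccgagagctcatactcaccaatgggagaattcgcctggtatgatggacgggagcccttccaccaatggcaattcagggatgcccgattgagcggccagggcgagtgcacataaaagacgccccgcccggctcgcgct
Id3, chr4:136143572-136143821, plus strand: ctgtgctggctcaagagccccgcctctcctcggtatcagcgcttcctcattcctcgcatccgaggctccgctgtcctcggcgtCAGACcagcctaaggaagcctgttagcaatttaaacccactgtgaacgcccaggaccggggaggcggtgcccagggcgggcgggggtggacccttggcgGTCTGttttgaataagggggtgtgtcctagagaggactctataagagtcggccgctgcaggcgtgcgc
Id4, chr13:48260866-48261115, plus strand: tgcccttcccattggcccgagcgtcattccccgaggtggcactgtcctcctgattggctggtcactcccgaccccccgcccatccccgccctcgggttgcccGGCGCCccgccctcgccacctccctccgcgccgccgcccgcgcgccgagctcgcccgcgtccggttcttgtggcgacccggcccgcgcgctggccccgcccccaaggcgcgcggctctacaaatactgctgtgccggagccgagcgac
Tgfbi, chr13:56609336-56609585, plus strand: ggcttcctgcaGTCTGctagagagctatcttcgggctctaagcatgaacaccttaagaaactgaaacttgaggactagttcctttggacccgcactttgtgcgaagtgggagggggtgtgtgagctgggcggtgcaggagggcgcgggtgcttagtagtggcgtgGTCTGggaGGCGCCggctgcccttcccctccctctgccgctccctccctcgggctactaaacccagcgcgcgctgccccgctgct
The Id2 window holds 1 GGCGCC and 0 CAGAC, that of Id3 0 and 2, that of Id4 1 and 0, and that of Tgfbi 1 and 2. Of all 32851 windows of this length in the table, 9.6% hold GGCGCC and 42.2% hold CAGAC. Of 48 windows that matched 39 of the members, 13 (27.1%) hold GGCGCC and 23 (47.9%) hold CAGAC. The members' windows also hold more CpG dinucleotides, with a median of 21 against 6 over all windows, and GGCGCC contains one. A match is a description of the letters and not a binding site.

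**Figure D5:**
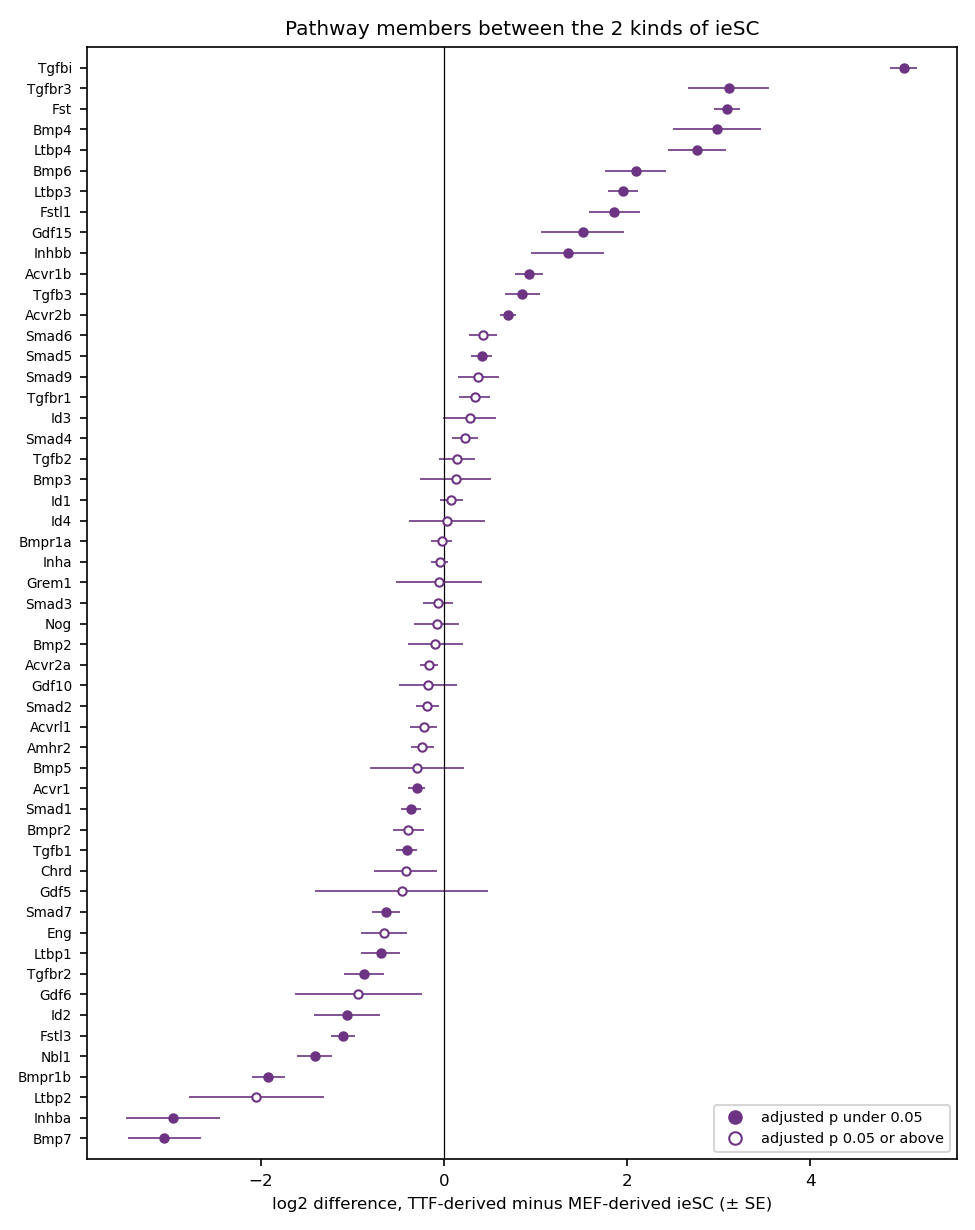
Log2 difference of TTF-derived minus MEF-derived ieSCs for the 53 members tested, with the SE of the fit as bars and filled points where the adjusted p was under 0.05. The largest positive differences are Tgfbi at 5.02, Tgfbr3 at 3.11 and Fst at 3.09, and the most negative are Bmp7 at -3.05 and Inhba at -2.95.

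Members also differed between names of a group. Between names 2 and 1 of TTF-derived ieSCs 6 of 53 members differed by 1 log2 unit or more, with Bmp4 at -1.87, Inhbb at -1.47, Bmp7 at 1.23, Inhba at -1.08, Bmp6 at -1.05 and Gdf15 at -1.03, name 2 minus name 1. Between names 2 and 1 of MEF-derived ieSCs there were 9, among them Ltbp2 at -2.88, Inhba at -1.88, Tgfbr3 at 1.74 and Gdf15 at -1.60. Median absolute differences over the members were 0.24 in TTF-derived and 0.38 in MEF-derived ieSCs, while the 2 arrays of a name differed by a median of 0.08 to 0.11. Inhba and Gdf15 were thus lower in name 2 than in name 1 in both kinds of ieSC.

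Of 93 further genes of the pathway with a named feature, 79 were tested. Between TTF-derived ieSCs and MEFs 14 were higher and 28 lower, 53.2% of those tested against 45.1% of all genes. Between MEF-derived ieSCs and MEFs 20 were higher and 24 lower, 55.7% against 51.2%. TTF-derived ieSCs had 10 higher and 25 lower than MEF-derived ieSCs, 44.3% against 36.0%. Their median differences were -0.22, 0.08 and -0.18 in that order. Like Bmp2, Gdf10 and the other members named above for this, Gdf7, Lefty1, Chrdl1 and Nrros passed the filter only through the MEF arrays.

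Among 12 other ligand genes tested, Lefty1, an inhibitor of Nodal, was lower than in MEFs with a log2 difference of -5.24 ± 0.30 in TTF-derived and -5.14 ± 0.30 in MEF-derived ieSCs. It was dim on all 8 ieSC arrays, and with values below the 40th percentile set to it the difference was -4.66 in both. Gdf1, a partner of Nodal, was lower with a log2 difference of -2.77 ± 0.24 and -4.64 ± 0.24, and higher in TTF-derived than in MEF-derived ieSCs by 1.87 ± 0.20. Bmp8a ran the other way, at 1.24 ± 0.15 and 3.05 ± 0.15 from MEFs and -1.81 ± 0.12 between the ieSCs. The adjusted p of these 8 calls in the limma fit was at most 9.98e-05. Of 3 other receptor and co-receptor genes tested, Rgma, a BMP co-receptor, was lower than in MEFs with a log2 difference of -0.42 ± 0.15 (adjusted p = 0.0468) in TTF-derived and -0.42 ± 0.15 (adjusted p = 0.0434) in MEF-derived ieSCs, and its receptor Neo1 with a log2 difference of -0.71 ± 0.15 (adjusted p = 0.0036) in MEF-derived ieSCs.

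Of 21 other extracellular regulators tested, 3 were higher and 10 lower in TTF-derived ieSCs than in MEFs, 4 higher and 8 lower in MEF-derived ieSCs than in MEFs, and 1 higher and 9 lower in TTF-derived than in MEF-derived ieSCs. That is 61.9%, 57.1% and 47.6% called in that order, against 45.1%, 51.2% and 36.0% of all genes. Nrros (LRRC33), which anchors latent TGF-beta1 on macrophages and microglia, was lower than in MEFs with a log2 difference of -7.42 ± 0.32 (adjusted p = 1.58e-07) in TTF-derived and -7.23 ± 0.32 (adjusted p = 1.53e-07) in MEF-derived ieSCs. It was dim on all 8 ieSC arrays, and with values below the 40th percentile set to it the difference was -6.72 in both. Macrophage markers had mean levels of 5.79 to 6.18 on the ieSC arrays and of 11.78 and 11.79 in MEFs, and their part in this was not tested. Lrrc32 (GARP), which anchors it on regulatory T cells and other cells, was lower with a log2 difference of -6.31 ± 0.61 (adjusted p = 2.71e-05) and -4.39 ± 0.61 (adjusted p = 0.00026). Fbn1, the microfibril protein to which latent complexes bind, averaged 8.81, 13.21 and 14.39 in TTF-derived ieSCs, MEF-derived ieSCs and MEFs, lower in TTF-derived ieSCs than in MEFs with a log2 difference of -5.58 ± 0.74 (adjusted p = 0.000207) and than in MEF-derived ieSCs with a log2 difference of -4.41 ± 0.60 (adjusted p = 0.00045). Fbn2 averaged 9.12, 5.43 and 15.27 and had the opposite sign between the ieSCs, 3.70 ± 0.69 (adjusted p = 0.00269). It was dim on 1 MEF-derived ieSC array, and with values below the 40th percentile set to it the difference between the ieSCs was 3.61.

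Inside the cell, 10 of 22 regulators (45.5%) were called in each comparison with MEFs, where 45.1% and 51.2% of all genes were called in TTF-derived and MEF-derived ieSCs, and 11 (50%) between the ieSCs, where 36.0% of all genes were. Nedd4l, a ubiquitin ligase for Smad2 and Smad3, was higher than in MEFs by 1.52 ± 0.16 (adjusted p = 3.9e-05) in TTF-derived and 1.69 ± 0.16 (adjusted p = 1.57e-05) in MEF-derived ieSCs. Tob1, which can repress BMP Smads, was higher in MEF-derived ieSCs by 1.75 ± 0.20 (adjusted p = 7.5e-05) and in TTF-derived ieSCs by 0.76 ± 0.20 (adjusted p = 0.0128). Pmepa1, a TGF-beta induced inhibitor of Smad activation, was lower in TTF-derived ieSCs than in MEFs with a log2 difference of -1.63 ± 0.35 (adjusted p = 0.00432). Tgif2, a corepressor, was higher in TTF-derived than in MEF-derived ieSCs by 1.19 ± 0.21 (adjusted p = 0.00217), and Runx2, a partner of Smads in bone, was lower with a log2 difference of -1.002 (adjusted p = 0.00177).

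Of 21 target genes tested, 3 were higher and 11 lower in TTF-derived ieSCs than in MEFs, 6 higher and 8 lower in MEF-derived ieSCs than in MEFs, and 4 higher and 7 lower in TTF-derived than in MEF-derived ieSCs. The shares called were 66.7%, 66.7% and 52.4% in that order, against 45.1%, 51.2% and 36.0% of all genes. Cdkn2b (p15INK4b), a cell cycle inhibitor that TGF-beta induces, averaged 3.73, 15.33 and 13.23 in TTF-derived ieSCs, MEF-derived ieSCs and MEFs. It was dim on all 4 TTF-derived ieSC arrays, and the difference was -9.50 ± 0.26 (adjusted p = 1.33e-08) in TTF-derived ieSCs minus MEFs, 2.10 ± 0.26 (adjusted p = 0.000109) in MEF-derived ieSCs minus MEFs, and -11.60 ± 0.21 (adjusted p = 5.13e-09) between the ieSCs. With values below the 40th percentile set to it, the differences that involve TTF-derived ieSCs were -8.22 from MEFs and -10.32 from MEF-derived ieSCs. Itga11, a collagen receptor subunit, was lower than in MEFs with a log2 difference of -8.59 ± 0.33 (adjusted p = 7.3e-08) and -9.72 ± 0.33 (adjusted p = 3.38e-08), and Tgfb1i1 (Hic-5) with a log2 difference of -4.50 ± 0.50 (adjusted p = 5.36e-05) in MEF-derived ieSCs. Tagln, an actin-binding protein of smooth muscle, averaged 13.33, 15.78 and 17.71 and was lower in TTF-derived than in MEF-derived ieSCs with a log2 difference of -2.45 ± 0.41 (adjusted p = 0.00146). Smooth muscle markers, Tagln among them, had mean levels of 9.45 to 9.54 in TTF-derived ieSCs, 9.52 to 10.6 in MEF-derived ieSCs and 15.03 in MEFs, and their part in this was not tested.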

How the data were processed

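Agilent arrays with 1 colour (Cy3) measured total RNA, with 10 samples on 10 arrays. The authors deposited log2 values for 62976 features, from 0.288 to 19.02, with array medians of 5.76 to 5.78. The base 2 was taken from this range. Per the submitters' processing notes they used limma, and the background correction, the normalization and any detection filter are not given in the sources used here. Sorted columns differed by at most 0.0379 above the 40th percentile, and no 2 columns were identical. The number of arrays limits the precision.

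Of the features, 31465 name 1 gene in the platform annotation, with 3282 symbols updated through RefSeq, and 31511 name none. Features had to exceed, on 2 or more arrays, the array's own 40th percentile, and the kept feature with the highest mean stood for its gene. This gave 16650 genes, of which 4839 had more than 1 kept feature. A model with 3 group means over all 10 arrays was fitted with limma 3.58.1 in R 4.3.3, with the array name as a random block (statmod 1.5.0, consensus correlation 0.606). There were 7 residual degrees of freedom, 2 between names, and 2.21 from the prior. Adjusted p-values are Benjamini-Hochberg over all 16650 genes, and 0.05 was the threshold. The fit was tested on simulated data.

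The members and all gene lists were chosen with earlier results of these data known. Array values are given for up to 2 called members of each class and comparison with the largest absolute difference, plus Id1 and Gdf15, and the up to 2 called genes of each further list and comparison are named by the same rule. Alternatives changed the filter, the scaling, the dim end, the feature of a gene, the treatment of names, the variance prior and the arrays used. Names 1 and 2 of the ieSCs were not taken as pairs.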

Additional observations from a re-analysis of the deposited data

Results flagged for a closer look

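In 110 groups of 4 arrays, 6 had 1 array far from the other 3 by Dixon's criterion at the 95% level. For independent arrays chance gives about 1 in 20. Arrays of one name are not independent, so that rate need not hold here. Gdf5 was 8.64 on array 2a of MEF-derived ieSCs, where the other arrays read 6.04 to 6.20. On the same array Tgfbi was 6.30 (others 5.95 to 5.99) and Bmp3 was 4.38 (others 4.95 to 5.06). Amhr2 was 6.95 on array 1b of MEF-derived ieSCs (others 7.09 to 7.11). In TTF-derived ieSCs Smad5 was 13.96 on array 2b (others 13.76 to 13.79) and Id2 was 12.47 on array 1b (others 12.39 to 12.40).

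Against MEFs, 1 member and 1 further pathway gene were called in opposite directions in the 2 kinds of ieSC. Ltbp3 was higher in TTF-derived and lower in MEF-derived ieSCs, and its log2 difference between them was 1.96 ± 0.16 (adjusted p = 2.34e-05) in the limma fit, with all 4 TTF-derived arrays above all 4 MEF-derived arrays. Cdkn2b was lower in TTF-derived and higher in MEF-derived ieSCs, with -11.60 ± 0.21 (adjusted p = 5.13e-09) between them. It was dim on all 4 TTF-derived arrays, and with values below the 40th percentile set to it the difference between them was -10.32. The cause of these differences was not tested.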

How the results depend on the processing

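With the 2 arrays of each name averaged before the fit, calls between TTF-derived and MEF-derived ieSCs fell to 10 members (6 higher and 4 lower), against 26, and to 2421 of all genes, against 5998. Averaging leaves 5 values in place of 10, with 1 for MEFs, so the number of calls against MEFs is not given for that fit. In the 15 alternatives of each comparison with MEFs, 25 of 35 called members in TTF-derived and 26 of 36 in MEF-derived ieSCs kept their call in all, and in the 16 between the ieSCs 10 of 26 did. Leaving out 1 name or MEF array leaves 1 name or array in a group, and that one is assumed to vary like the others. The number of calls is therefore not given for those fits. With the replicate number as a block, the ieSCs differed in 32 members (15 higher, 17 lower) and 8339 of all genes. Deviations of same-numbered names correlated at 0.297 over genes, with 2 pairs only, so the numbers were not taken as pairs.

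No called member changed direction in any alternative. Members without a call changed sign in 46 instances, 3 of which passed the threshold with the new sign. With features above the 60th percentile, another Gdf5 feature gave -1.64 for TTF-derived and -1.58 for MEF-derived ieSCs minus MEFs (limma adjusted p = 0.012 and 0.0128), and without MEF-derived name 2, Id4 gave -0.69 for TTF-derived minus MEF-derived ieSCs (adjusted p = 0.0456). With the mean of the kept features, Gdf5 gave -0.68 and -0.42, and Smad1 -0.064 and Smad4 0.071 for TTF-derived ieSCs minus MEFs. With values below the 40th percentile set to it, Bmp2, Bmp5, Gdf10 and Grem1 each gave 0.001 and Id4 -0.21 between the ieSCs. Leaving out 1 name or MEF array turned the sign of further uncalled members, given as the range over those fits. For TTF-derived ieSCs minus MEFs these were Bmp7 (-0.046 to 1.19), Inha (-0.098 to 0.028), Inhbb (-0.61 to 0.86), Ltbp1 (-0.13 to 0.58), Smad4 (-0.15 to 0.088), Smad5 (-0.007 to 0.11) and Smad6 (-0.049 to 0.056). For MEF-derived ieSCs minus MEFs these were Gdf15 (-0.78 to 0.82), Id2 (-1.19 to 0.26), Inha (-0.066 to 0.09), Inhba (-1.05 to 0.83), Nbl1 (-0.49 to 0.045) and Smad7 (-0.092 to 0.36). For TTF-derived minus MEF-derived ieSCs these were Bmp2 (-0.27 to 0.084), Bmp3 (-0.009 to 0.26), Bmpr1a (-0.15 to 0.095), Chrd (-1.05 to 0.22), Gdf10 (-0.42 to 0.069), Gdf5 (-1.13 to 0.21) and Grem1 (-0.28 to 0.17). To these come Id1 (-0.005 to 0.17), Id3 (-0.26 to 0.82), Id4 (-0.69 to 0.76), Inha (-0.13 to 0.031), Nog (-0.19 to 0.032), Smad3 (-0.26 to 0.13) and Tgfb2 (-0.23 to 0.51). The cause was not tested. What depth limits cannot be given without a background signal, but 7 members in TTF-derived ieSCs, 6 in MEF-derived ieSCs and 2 in MEFs were dim on every array of the group, and their differences have no order below the 40th percentile.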
